A study of Saccharomyces cerevisiae with 4 samples.

Results

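The genes described here are the 10 listed by locus for sulfate uptake, sulfate reduction and methionine synthesis in *Saccharomyces cerevisiae*. They are SUL1 (YBR294W), SUL2 (YLR092W), MET3 (YJR010W), MET14 (YKL001C), MET16 (YPR167C), MET5 (YJR137C), MET10 (YFR030W), MET2 (YNL277W), MET17 (YLR303W) and MET6 (YER091C). They were found by locus name, 10 of 7132 features in the counts, and each passed the filter on low counts that left 6140 features for testing.

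RNA was sequenced from dormant spores in 4 libraries, with 2 replicates of red spores and 2 of non-red spores. All of the spores came from a diploid of SK1 background in which the CUP1 promoter drives Ime1 on both homologs, so that copper in the sporulation medium starts meiosis. That diploid is 1 engineered strain that carries mCherry under the GPD1 promoter, with the hygromycin resistance gene hph, at its MATa allele, and spores were harvested 7 days after induction and sorted by color. Each replicate was a separate sporulation and sort, and each library was made from a pool of sorted spores with 100 ng of total RNA as input. Red spores are called a spores and non-red spores α spores, following the study, whereas the deposited strain descriptions name MATa for only 1 library, the non-red one of replicate 1, and MATalpha for the other 3. The sporulation medium was potassium acetate with copper sulfate, raffinose, adenine, uracil, histidine, leucine and tryptophan, and its recipe names neither methionine nor cysteine.

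Column totals of replicate 1 were 35937755 reads (a) and 45697828 (α), and those of replicate 2 were 27468051 (a) and 25493760 (α), so both libraries of replicate 1 were the deeper ones. The sort was checked with hph, which had 1989 and 2415 normalized CPM (counts scaled by library size) in a spores, against 98.6 and 37.7 in α. The sorted marker mCherry had 217 and 514 in a spores, against 12.5 and 0 in α. It was not called between a and α spores by edgeR's quasi-likelihood test (unadjusted p = 0.0023) or by DESeq2 (adjusted p = 0.114). SPS100, a late sporulation gene, reached between 2151 and 3238 normalized CPM. Summed over 11 tested spore wall and late sporulation genes, the level was 2295 and 2481 in replicate 1 and 2999 and 3499 in replicate 2, most of it SPS100. The other 10 summed to 145 and 183 in replicate 1 and 231 and 261 in replicate 2. Of these, 4 had a log2 fold change of replicate 2 over replicate 1 below 0 and 6 above it, and none of the 11 was called by edgeR's quasi-likelihood test. SSP1 was at 0 in both libraries of replicate 1, and GAS2 was at 0 in α spores of replicate 2. The sum over 11 genes of growing cells lay between 573 and 652 in the 4 libraries, and CTS1 alone had between 191 and 290. None of these 11 was called between replicates by the same test. Their log2 fold changes of replicate 2 over replicate 1 ran from -3.57 for CLN1 to 9.39 for CLB6, which had 0.028 and 0 in replicate 1. DESeq2, which called 44.1% of all genes tested between replicates, called CLN1 and DSE2 lower and CLB6 higher in replicate 2. Of the spore wall and late sporulation genes DESeq2 called SPS100, SPS19 and SSP1 higher in replicate 2. The part of these markers in the differences below was not tested. In bulk RNA of this kind, fewer spores with a transcript and less of it per spore cannot be told apart.

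Yeast takes sulfate up through plasma membrane permeases, activates it with ATP in successive steps, reduces it to sulfite and then to sulfide, and joins the sulfide to O-acetylhomoserine to give homocysteine, which is methylated to methionine. In growing cells these genes are switched on when methionine and its product S-adenosylmethionine are scarce. The activator Met4 does so through the DNA-binding proteins Cbf1 and Met31 or Met32, and the ubiquitin ligase subunit Met30 holds Met4 in check.

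The bases before the start codon are shown here because 9 of the 10 genes hold CACGTG, the core that Cbf1 binds, within 500 bases of the start codon. Across 6000 windows of that length before nuclear protein-coding genes, 6.23% hold it. TGTGGC, taken as the core bound by Met31 and Met32, is found on either strand in 7 of the 10 genes and in 14.2% of all windows. Both occur in the same 7 genes and in 1.15% of all windows. CACGTG reads the same on both strands and was counted once, and 0 of the 21 matches in these genes overlap another. The stretches below run 5′ to 3′ toward the start codon, from the R64 reference, which is S288C and not SK1. Capitals mark the matches, with GCCACA as TGTGGC on the other strand.
MET14, chrXI:439562-439623, minus strand: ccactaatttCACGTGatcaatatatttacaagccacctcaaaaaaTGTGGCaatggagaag
MET16, chrXVI:877774-877820, minus strand: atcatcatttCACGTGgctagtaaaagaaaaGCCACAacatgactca
MET2, chrXIV:116986-117038, plus strand: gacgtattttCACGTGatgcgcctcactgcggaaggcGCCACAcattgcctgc
MET10, chrVI:213053-213122, plus strand: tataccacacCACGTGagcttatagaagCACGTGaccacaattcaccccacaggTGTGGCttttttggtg
SUL2, chrXII:323200-323271, plus strand: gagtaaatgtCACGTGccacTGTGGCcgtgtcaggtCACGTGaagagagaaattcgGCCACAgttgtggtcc
MET17, chrXII:732232-732257, plus strand: tggcaaatggCACGTGaagctgtcga

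In all 7 genes with both motifs a CACGTG lies farther from the start codon than any TGTGGC match, and in SUL2 the matches of the 2 kinds alternate. MET3, MET5, MET10 and SUL2 have 2 matches to CACGTG each. MET17 and MET6 have CACGTG alone, and in MET6 it begins 495 bases before the start codon. SUL1 has neither run of letters in its window. These are matches of letters and not measured binding sites.

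**Figure D1:**
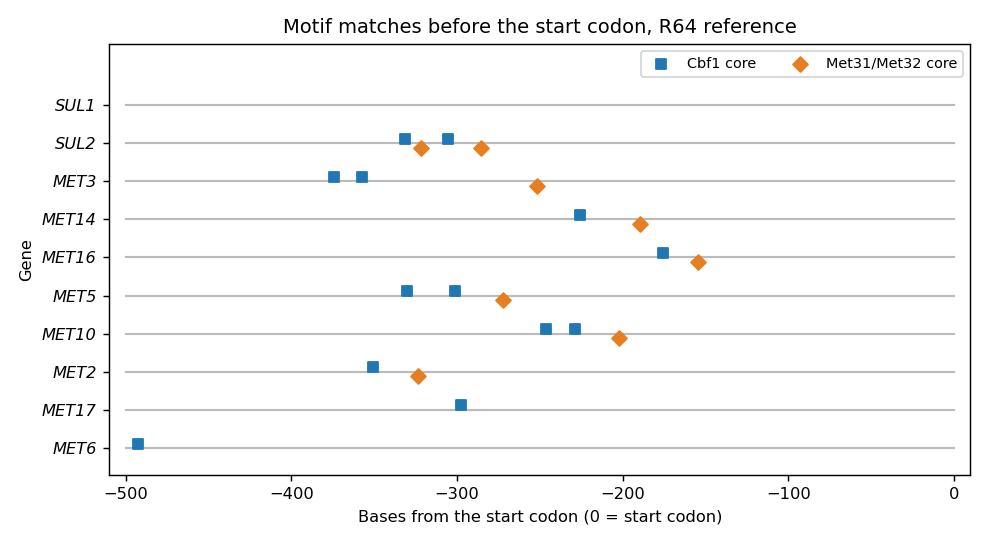
Matches to the Cbf1 core (squares) and to the Met31 and Met32 core (diamonds, either strand) in the 500 bases before the start codon of each gene, with distance from the start codon in bases on the x axis and genes on the y axis. The Cbf1 core is present in 9 of 10 genes, and SUL1 has no match.

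All 10 genes had reads in every library, from 2909 for MET3 in α replicate 2 to 130064 for MET17 in α replicate 1. Together they held 0.951% and 1.173% of the tested reads in a and α spores of replicate 1, and 0.671% and 0.768% in replicate 2. No 50-base word of any of the 10 genes occurs elsewhere in the reference (0%), SUL1 and SUL2 included, and each gene is 1 coding exon. MET17 shares its first 12 bases with YLR302C on the other strand, which had at most 1 read in any library, and how reads in such an overlap were counted is not stated.

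Levels between genes were compared as normalized CPM per kb of coding length. MET17 (chromosome XII, 732542 to 733876 in R64), the O-acetylhomoserine sulfhydrylase that makes homocysteine, was the most abundant on average at 1415 ± 663 (SD, n = 4 libraries). MET6 (chromosome V, 339864 to 342167), the methionine synthase, had 1114 ± 147. In every library both were above 97.48% of the genes tested or more. Next were MET14 at 524 ± 94.0, SUL1 at 432 ± 249, MET5 at 305 ± 107 and MET10 at 280.4 ± 104 per kb. MET16 had 198 ± 13.1, MET2 192 ± 26.8, MET3 105 ± 34.3 and SUL2 101.4 ± 38.9. Neighbors in this order differed beyond the SD of their log2 ratio over the 4 libraries at 3 of 9 steps, from MET6 to MET14, from SUL1 to MET5 and from MET2 to MET3. The least abundant, MET3 and SUL2, still lay above between 52.3% and 80.9% of genes.

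**Figure D2:**
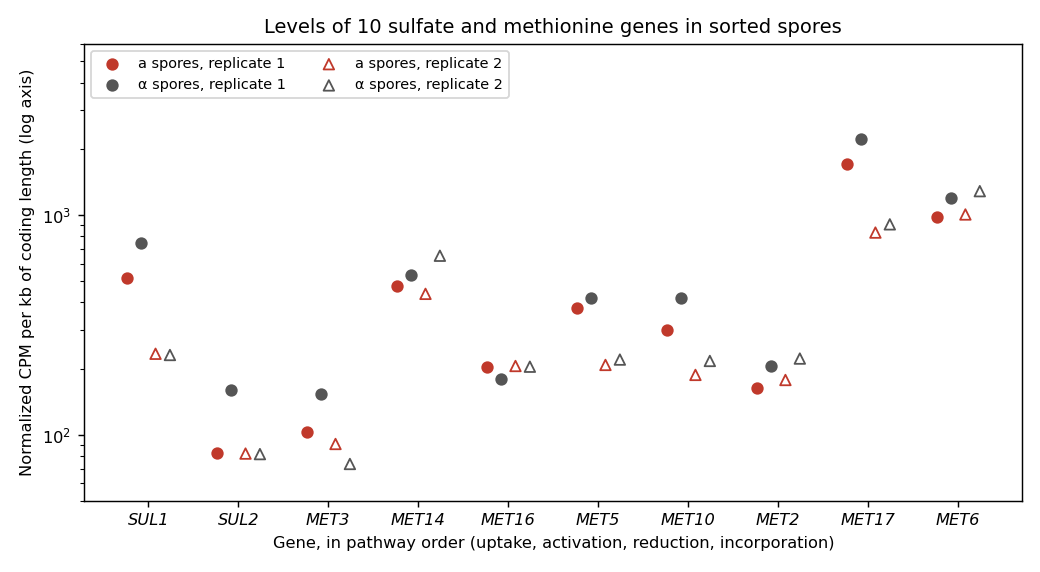
Normalized CPM per kb of coding length (log axis) of the 10 genes in each of the 4 libraries, red for a and gray for α spores, filled circles for replicate 1 and open triangles for replicate 2. SUL1, MET5, MET10 and MET17 are higher in both libraries of replicate 1, by a fitted 1.76- to 2.68-fold, while MET6, MET2, MET14 and MET16 lie close together.

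The first comparison asked whether spores of the 2 mating types carry different amounts of these transcripts. None of the 10 genes was called between a and α spores by edgeR's quasi-likelihood test with the replicate number as a block and Benjamini-Hochberg adjustment at 0.05, and 0 of 10 had an unadjusted p under 0.05. Of all genes tested, 0.0163% were called, which is 1 transcript, hph, and 182 genes had an unadjusted p under 0.05. The sorted marker mCherry was not called either, whereas the study's own edgeR model listed it among the transcripts that differed. The lack of a call therefore does not show equal amounts. The likelihood ratio test also called 0 of the 10. DESeq2 with the same block called 3.62% of all genes and 1 of the 10, MET6.

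MET6 had 2251 and 2315 normalized CPM in a spores of replicates 1 and 2, against 2739.8 and 2956 in α. Both a libraries lay below both α libraries, by 0.28 and 0.35 on the log2 scale within the 2 replicates. The fitted log2 fold change (a over α) was -0.32 ± 0.17 (SE). In edgeR's quasi-likelihood test its p was 0.0943 unadjusted and 1.0 adjusted, and DESeq2 gave an adjusted p of 0.0277 with a log2 fold change of -0.34.

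MET2, the homoserine O-acetyltransferase that supplies the carbon skeleton, had 237 and 259 normalized CPM in a spores, against 299.5 and 324 in α. MET14, the adenylylsulfate kinase of the activation branch, had 289 and 266 in a spores, against 324 and 397 in α. With MET6 these are the 3 genes whose a libraries both lay below both α libraries, against 8.88% of all genes tested. Their log2 fold changes (a over α) were -0.33 ± 0.22 (SE) for MET2 and -0.37 ± 0.22 for MET14, and neither was called.

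The fitted log2 fold change (a over α) was below 0 in 9 of the 10 genes and in 48.0% of all genes tested. It ranged from -0.47 for SUL2 to 0.10 for MET16, with a median of -0.29 beside 0.02 over all genes tested. In replicate 1, a was below α in 9 of the 10 genes and in 3043 of all 6140 tested. In replicate 2, a was below α in 6 of the 10 and in 2952 of all 6140. The same 6 genes, MET14, MET5, MET10, MET2, MET17 and MET6, were lower in a spores in both, which 23.7% of all genes tested were. The genes are not independent, and no test of these shares was made.

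The permeases, SUL1 and SUL2, and the ATP sulfurylase MET3 were lower in a spores in replicate 1 and not in replicate 2. SUL2 (chromosome XII, 323544 to 326225) had 221 normalized CPM in a and 429 in α spores of replicate 1, and 219.96 and 219 in replicate 2. The α library of replicate 1 alone stood apart, and the other 3 were level. MET3 (chromosome X, 456239 to 457774) had 159 in a and 235 in α spores of replicate 1, and 139 and 113 in replicate 2. Its log2 fold change of -0.13 lay within the SD of 0.62 of its 2 within-replicate log2 ratios.

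**Figure D3:**
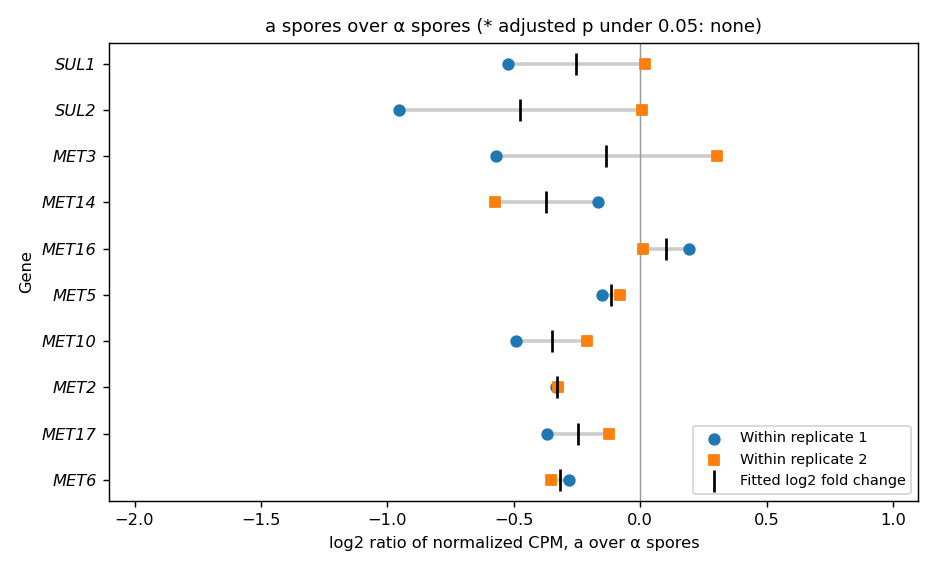
Log2 ratio of normalized CPM in a over α spores for each gene, within replicate 1 (circles) and replicate 2 (squares), with the fitted log2 fold change as a bar. The fitted value is below 0 in 9 of 10 genes and none is called by the quasi-likelihood test.

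The replicates were then compared in the same model. Each replicate is 1 sporulation whose 2 libraries are the sorted fractions, so these p-values measure the spread left between those fractions and not the spread between repeated sporulations. In edgeR's quasi-likelihood test with Benjamini-Hochberg adjustment 4 of the 10 genes were lower in replicate 2, namely SUL1, MET5, MET10 and MET17, and none was higher. Of all genes tested 18.8% were called, and 9.87% were called lower in replicate 2. The median log2 fold change of replicate 2 over replicate 1 was -0.56 for the 10 genes and -0.02 for all genes tested. Both libraries of replicate 2 lay below both of replicate 1 for 6 of the 10 genes and for 31.1% of all genes tested. SUL2 is among the 6 by a narrow margin, with 220.9 normalized CPM in a spores of replicate 1 against 219.96 and 218.7 in replicate 2.

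SUL1 (chromosome II, 789235 to 791814), a high-affinity sulfate permease of the plasma membrane, had the largest difference of the 10. It had 1337 and 1922 normalized CPM in a and α spores of replicate 1, and 602 and 595 in replicate 2. The mating types of replicate 2 were level, and both were below either library of replicate 1. The log2 fold change of replicate 2 over replicate 1 was -1.42 ± 0.21 (SE), or 2.68-fold higher in replicate 1 (adjusted p = 0.0024, edgeR's quasi-likelihood test). It was -1.15 within a spores and -1.69 within α spores.

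SUL2, the other permease, was listed above, and 3 of its 4 libraries were between 219 and 221 normalized CPM. Its log2 fold change between replicates was -0.49 ± 0.28 (SE), with an adjusted p of 0.278 in edgeR's quasi-likelihood test. With each of the 4 libraries left out in turn, the log2 fold change of SUL2 lay between -0.997 (without a replicate 1) and -0.019 (without α replicate 1). Without a replicate 1, the α library that stood apart was all that was left of replicate 1. Per kb, SUL1 exceeded SUL2 by 6.29- and 4.66-fold in a and α spores of replicate 1 and by 2.85- and 2.83-fold in replicate 2.

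Sulfite reductase, which turns sulfite into sulfide, is made of the products of MET10 and MET5. MET5 (chromosome X, 678957 to 683285) had 1627 and 1807 normalized CPM in a and α spores of replicate 1 and 899 and 951 in replicate 2. MET10 (chromosome VI, 213312 to 216419) had 928 and 1304 in replicate 1 and 581 and 673 in replicate 2. In both genes the replicates did not overlap. The log2 fold change of replicate 2 over replicate 1 was -0.89 ± 0.19 (SE) for MET5, with an adjusted p of 0.0115 in edgeR's quasi-likelihood test. For MET10 it was -0.81 ± 0.19, with an adjusted p of 0.0199 in the same test.

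Per kb of coding length, MET5 over MET10 was 1.26 and 0.995 in a and α spores of replicate 1 and 1.11 and 1.01 in replicate 2. The ratio was farthest from 1 in a spores of replicate 1. The call of MET10 was the least stable of the 4, since its adjusted p was between 0.0588 and 0.119 without α replicate 1, a replicate 2 or α replicate 2. MET5 had an adjusted p of 0.0528 without a replicate 2.

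MET17 had 2286 and 2949.7 normalized CPM in a and α spores of replicate 1 and 1109.8 and 1209.7 in replicate 2. The log2 fold change of replicate 2 over replicate 1 was -1.16 ± 0.18 (SE), or 2.24-fold higher in replicate 1 (adjusted p = 0.0031, edgeR's quasi-likelihood test). MET6, the next enzyme, had nearly the same level in both, with a log2 fold change of 0.08 ± 0.17. MET17 was therefore 1.75 and 1.86 times as abundant as MET6 per kb in replicate 1, and 0.827 and 0.706 times in replicate 2.

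Of the 3 enzymes between uptake and sulfite, the ATP sulfurylase MET3 had a log2 fold change of replicate 2 over replicate 1 of -0.62 ± 0.30 (SE). It was -0.19 within a spores and -1.06 within α spores, and -0.34 with α replicate 1 left out. The adjusted p of MET3 was 0.194 (edgeR's quasi-likelihood test) or 0.0441 (DESeq2). Between replicates DESeq2 called 5 of the 10 genes and 44.1% of all genes tested. MET14 (chromosome XI, 438777 to 439385) had a log2 fold change of 0.09 ± 0.22. MET16 (chromosome XVI, 876847 to 877632), which reduces the activated sulfate to sulfite, had 160.2 and 140.1 normalized CPM in a and α spores of replicate 1 and 161 and 160.2 in replicate 2. It varied least among the 10 genes relative to its level, and its log2 fold change was 0.10 ± 0.26. MET2 (chromosome XIV, 117349 to 118809) had a log2 fold change of 0.12 ± 0.22.

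**Figure D4:**
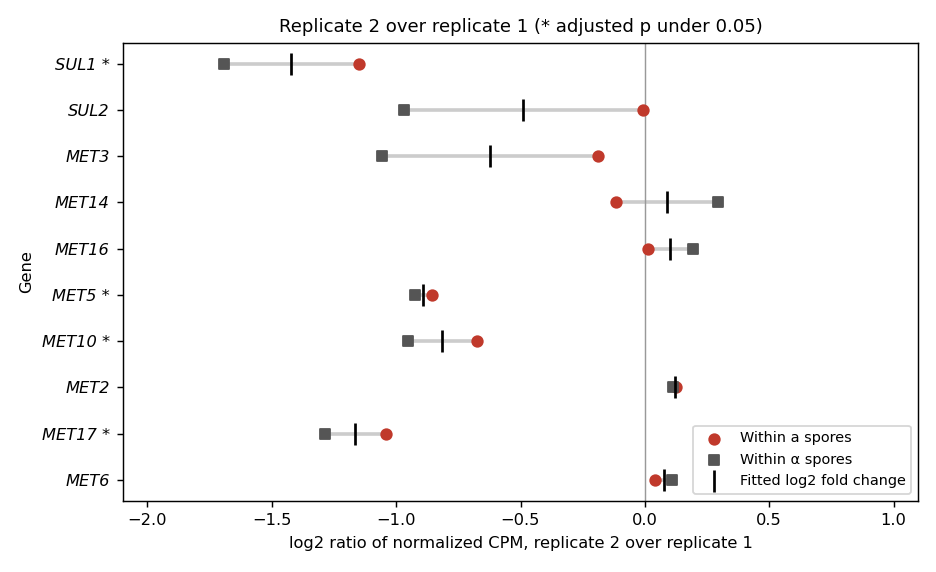
Log2 ratio of normalized CPM in replicate 2 over replicate 1, within a spores (circles) and within α spores (squares), with the fitted log2 fold change as a bar and an asterisk for an adjusted p under 0.05 in the quasi-likelihood test. SUL1, MET5, MET10 and MET17 lie between -1.69 and -0.68 in both mating types, and MET14, MET16, MET2 and MET6 lie between -0.12 and 0.29.

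Set against the motifs, SUL1, with no exact match to either in its window, and MET17, with CACGTG alone, had the largest differences between replicates. Of the 7 genes with both motifs 2 were called lower, beside 9.87% of all genes tested. Only exact matches of letters in S288C were counted, and any part of the motifs in these differences was not tested. Among 57 other tested genes with both motifs, 9 were called lower and 6 higher in replicate 2, with a median log2 fold change of 0.09. Calls in either direction made up 18.8% of all genes tested.

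The rest of the pathway was followed in 42 further genes in 5 lists, of which 40 passed the filter. MET28 and BDS1 did not pass it. The lists were chosen with earlier results of these data known. Counts of calls in them, set beside the shares of all genes, are therefore a description and not a test. Between a and α spores 0 of the 40 were called by edgeR's quasi-likelihood test and 4 had an unadjusted p under 0.05, which 2.96% of all genes tested had. DESeq2 called 3 of the 40, and 3.62% of all genes. Between replicates 9 were called lower and 3 higher in replicate 2 by edgeR's quasi-likelihood test, with a median log2 fold change of -0.20, while 18.8% of all genes tested were called and 9.87% were called lower. DESeq2 called 16 lower and 5 higher, and 44.1% of all genes.

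The branch that makes homoserine and links homocysteine to cysteine had the most calls, with 4 of 7 genes lower in replicate 2 and 1 higher. The shares of all genes tested were 9.87% called lower and 18.8% called in either direction. HOM2, aspartate semialdehyde dehydrogenase, had 1668 and 1583 normalized CPM in a and α spores of replicate 1 and 229 and 163 in replicate 2, a log2 fold change of -3.07 ± 0.22 (SE). HOM3, aspartate kinase, had 2119 and 2037 in replicate 1 and 596 and 478 in replicate 2, and fell by 1.96 on the log2 scale. STR3 and STR2, which convert cystathionine to homocysteine and cysteine to cystathionine, fell by 2.10 and 1.78. CYS4, cystathionine beta-synthase, had 383 and 415 in replicate 1 and 794 and 803 in replicate 2, a log2 fold change of 1.002 ± 0.192. Their adjusted p lay between 1.3e-04 and 0.0079 in edgeR's quasi-likelihood test. HOM6 and CYS3 of this list were not called by that test, with log2 fold changes of 0.003 and -0.45 (adjusted p = 0.999 and 0.241).

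Against 18.8% called of all genes tested, the genes for siroheme, the cofactor of sulfite reductase, and for regulators had 1 call among 8 tested. This was GCN4, the general activator of amino acid synthesis genes, with 2992 and 3375 normalized CPM in replicate 1 and 979 and 891 in replicate 2 (log2 fold change -1.77 ± 0.19 SE, adjusted p = 5.1e-04, edgeR's quasi-likelihood test). MET4, MET31, MET32, CBF1 and MET30 were not called by this test, with log2 fold changes from -0.58 for CBF1 to 0.45 for MET32. MET1, a siroheme synthesis gene, had -0.72 with an adjusted p of 0.0801 in edgeR's quasi-likelihood test, 0.0418 in the likelihood ratio test and 3.8e-04 in DESeq2. DESeq2 also called CBF1, with an adjusted p of 0.0410.

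In the S-adenosylmethionine and folate list 2 of 9 genes were called. The shares of all genes tested were 18.8% called in either direction and 9.87% called lower in replicate 2. SAH1, S-adenosylhomocysteine hydrolase, fell by 1.62 in replicate 2, and MET13, a methylenetetrahydrofolate reductase that supplies the methyl group, fell by 0.99. Of 7 genes for uptake of other sulfur compounds 1 was called, the S-methylmethionine permease MMP1, with a log2 fold change of 0.80 ± 0.23 (SE). In the salvage and other sulfur list 2 of 9 were lower and 1 was higher. MEU1, a phosphorylase of the methionine salvage pathway, had 186 and 240.3 normalized CPM in replicate 1, 44.7 and 32.2 in replicate 2, and fell by 2.48 on the log2 scale. MET22, the phosphatase that clears the phosphoadenosine phosphate left by sulfate reduction, fell by 1.15. The higher one was GSH1, which makes the first intermediate of glutathione, with 204 and 162 in replicate 1, 429 and 525 in replicate 2 and a log2 fold change of 1.38 ± 0.24.

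**Figure D5:**
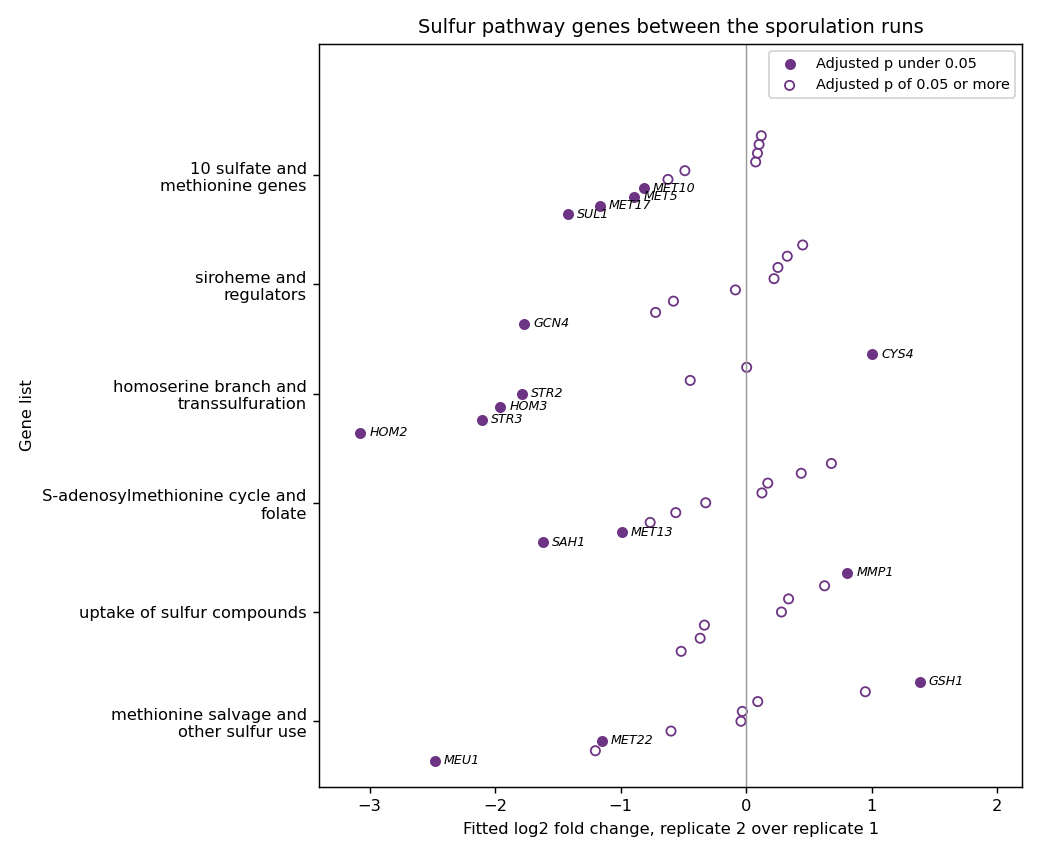
Fitted log2 fold change of replicate 2 over replicate 1 (x axis) for the 10 genes and the tested genes of 5 further sulfur lists (y axis), filled where the adjusted p was under 0.05 in the quasi-likelihood test. Values range from -3.07 for HOM2 to 1.38 for GSH1.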

How the data were processed

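Members and gene lists were chosen with earlier results of these data known. Read pairs were mapped by the authors with STAR 2.7.3a to R64 plus mCherry and hph, then quantified with featureCounts. What was deposited is an unnormalized estimated count for each gene, and between 61.7% and 69.3% of non-zero values were not whole. Treatment of strand, overlaps and multi-mapping reads is not given in the sources used here. Values were rounded, filtered with filterByExpr, TMM-normalized and fitted in edgeR 4.0.16 (R 4.3.3) with mating type and replicate number. The batch term follows the study. The quasi-likelihood test was used because the likelihood ratio test called more false genes in simulated counts. SE is the absolute log2 fold change over the root of F, and ratios used 0.125 CPM. Same-numbered libraries deviated together (r = 0.407 over 6140 genes), and the pairing comes from the repeated sporulation and sort. The 3-count floor was 0.0680 to 0.117 CPM and covers counting error only. Locus tags matched 6047 of 7132 features to R64. Coding lengths, positions and bases are from R64. All 10 genes are named, and of each list those with an FDR under 0.05 in either comparison. Alternatives were the likelihood ratio test, DESeq2 1.42.0, other normalizations and filters, unrounded values, no block, no mating type term, an FDR of 0.1, levels without length and each library left out.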

Additional observations from a re-analysis of the deposited data

Results flagged for a closer look

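The log2 ratio between mating types had opposite signs in the 2 replicates for 3 of the 10 genes, but for SUL1 and SUL2 the ratio in replicate 2 was close to 0. The log2 ratio between replicates had opposite signs in the 2 mating types for 1 gene. With 1 library for each mating type in each replicate these differences were not tested. For SUL1 the log2 ratio (a over α) was -0.52 in replicate 1 and 0.019 in replicate 2. In SUL2 it was -0.96 and 0.0081, and in MET3 it was -0.57 and 0.30. The log2 ratio of replicate 2 over replicate 1 in MET14 was -0.12 within a spores and 0.29 within α spores.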

How the results depend on the processing

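Between mating types, the number of genes called was 1 with the replicate block. It was 0 with no replicate block, 4 with library totals only, 222 with DESeq2 and between 0 and 9 when each library was left out. DESeq2 called 1 of the 10 genes. Between replicates, 1156 genes were called, 2706 with DESeq2 and between 623 and 1340 when each library was left out, where the 10 genes gave between 2 and 5 calls. SUL1 and MET17 were called in each setting tried. Leaving out a library leaves mating type or replicate as the only term, so the mating types then hold unequal shares of the replicates. Over these 4 fits the log2 fold change (a over α) changed sign for SUL1 (-1.10 to 0.70), SUL2 (-0.96 to 0.0047), MET3 (-0.66 to 0.39), MET16 (-0.0013 to 0.20), MET5 (-0.65 to 0.41), MET10 (-0.80 to 0.16) and MET17 (-0.94 to 0.49). Between replicates it changed sign for MET2 (-0.068 to 0.29), MET6 (-0.11 to 0.24), MET14 (-0.20 to 0.37) and MET16 (-0.0026 to 0.17). The median percentile of the 10 genes was 88.9 per kb and 93.5 without length.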

Other observations

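The coding sequences of the 10 genes hold few codons for the sulfur amino acids. Cysteine and methionine codons, the start codon left out, made up a median of 1.53% of codons in the 10 genes and 3.07% in 5673 nuclear genes of at least 100 codons in R64. MET17 has 1 cysteine and 1 methionine codon in 444, a share of 0.450%. MET10 has 2 and 4 in 1035, and MET3 has 1 and 4 in 511. MET14 has 0 methionine codons after the start in 202 codons, and its 4 cysteine codons are a share of 1.98%, at the 79.6th percentile. MET2, SUL1 and SUL2 have shares of 2.88%, 2.79% and 2.58%, so the permeases and MET2 were nearer to the middle of all genes than the other enzymes were. The genes are not independent, and no test was made.

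Of the 40 further sulfur genes tested, 4 had an unadjusted p under 0.05 between mating types in edgeR's quasi-likelihood test, and all 4 had an adjusted p of 1.0 in that test. DESeq2 gave adjusted p of 1.0e-05 for MUP3, 6.2e-04 for STR3, 0.0128 for SOA1 and 0.130 for GSH2. They are named after their values were seen. MUP3, a methionine permease, had 48.1 and 54.5 normalized CPM in a spores, against 103 and 145 in α (log2 fold change -1.25). SOA1, a transporter of sulfur compounds, had 43.5 and 86.7 in a spores, against 112 and 134 in α. STR3 was lower in a spores by 0.58 and 0.55 on the log2 scale within the 2 replicates. GSH2, glutathione synthetase, had 94.1 and 135 in a spores, against 40.9 and 106 in α.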
